A study of Mus musculus with 1104 samples.

Results

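The livers of male mice on the third day of a high-fat diet were compared with those on the first day, to see which changes of the first day were still present 2 days later and which were not. All 12 libraries of the 2 groups were used, 6 mice at 1 day and 6 at 3 days. They are part of 84 liver libraries at 14 time points and 1104 libraries of 13 organs in the series. Of the 20646 genes listed, 12592 had enough counts to be tested. All mice were wild-type C57BL/6 males that ate a diet with 60 kcal% fat from 8 weeks of age until dissection. The groups differ in time on the diet (0, 1 or 3 days) and also in age by the same days. Messenger RNA of whole liver was measured by RNA-seq as read counts per gene, and levels are given in CPM, read counts relative to the scaled size of each library. The 6 mice at 0 days gave the level before the diet. Mice kept off the diet for 1 or 3 days were not analysed here. No label ties a mouse to a cage or an hour of dissection, so cage, hour and time on the diet cannot be told apart. In whole tissue, fewer cells of a type and less RNA per cell cannot be told apart either.

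A liver that receives a load of dietary fat has several linked ways to handle it. The transcription factor SREBP2 drives the enzymes that build cholesterol, and is held back when sterols in the cell are plentiful, while its relative SREBP1c drives fatty acid synthesis with insulin and sugar. PPARA senses fatty acids and drives their oxidation and the making of ketone bodies. The nuclear receptors PXR and CAR drive P450 enzymes that clear drugs and steroids, NRF2 drives conjugation with glutathione, and resident macrophages, the Kupffer cells, and hepatocytes answer interferon with a shared set of antiviral genes.

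The 12 libraries held 9980872 to 13102723 counts, so that 1 CPM stood for about 11 counts. No library was a repeat of another, and the median correlation of each library with its group lay between 0.980 and 0.985 over the 18 libraries of 0, 1 and 3 days. Hepatocyte markers summed to 95718 to 119946 CPM (median 108706) at 1 day and 88159 to 107099 (median 95895) at 3 days. Of these 9 genes 3 had a log2 fold change above 0 from day 1 to day 3, and 1 fell by the test named below. The part of this shift in the results was not tested. Markers of pancreatic acini reached at most 0.714 CPM and of skeletal muscle at most 1.52 CPM. Adipocyte markers summed to at most 0.286 CPM at 1 day and to 0.382 to 1.82 CPM at 3 days, a difference without overlap at a level near 0 whose part in the results was not tested. Genes were called at a Benjamini-Hochberg adjusted p under 0.05 by the quasi-likelihood test of edgeR, and only called genes are said to have risen or fallen. Changes are log2 fold changes ± standard error, and n = 6 mice per time point throughout. Between day 1 and day 3, 205 genes (1.63%) were called. Of these 65 rose and 140 fell, which is 0.516% and 1.11% of the genes tested. The median log2 fold change of all genes was 0.0077. At an unadjusted p under 0.05 there were 1887 genes. Single mice weighed on these counts: leaving out 1 library gave 95 calls (without replicate 3 of day 3) to 235, and the calls came to 122 and 112 without replicates 3 and 4 of day 1 and to 119 without replicate 5 of day 3. With offsets for GC and transcript length 30 genes rose and 133 fell, and 129 of the 205 genes kept their call. Without them the genes that rose had a median transcript of 4989 nt and a GC content of 50.4%, those that fell 2182 nt and 48.5%, and all genes 3411 nt and 49.7%. From 0 days to 1 day 617 genes (4.9%) rose and 598 (4.75%) fell, together 9.65%. From 0 to 3 days 558 (4.43%) rose and 609 (4.84%) fell, together 9.27%. As background for groups that do not overlap, all 6 mice of the later group lay above all 6 of the earlier one in 0.524% of genes from day 1 to day 3, and below them in 1.08%. These shares were 2.03% and 1.69% from 0 days to 1 day, and 1.79% and 2.47% from 0 to 3 days. The 3 comparisons share libraries, so their values for a gene are set side by side and are not independent of each other. Coordinates are on GRCm38, and a level written as 3 numbers is the lowest, the median and the highest of 6 mice.

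Promoter sequences were taken from RefSeq (GRCm38.p6), 250 bases before to 50 after each start site, and 10064 of the 12592 genes tested had one. The sterol element TCACNCCAC, a binding motif of SREBP, was searched on both strands and was found in 1.48% of these genes. It was in 1 of the 17 genes of the sterol list with a promoter, Hmgcs1, and so in 1 of the 14 members that fell between day 1 and day 3 and had one. The interferon-stimulated response element, searched on both strands as GAAA, any 2 bases and GAAA again, was in 3.92% of all genes, in 11 of 19 members of the interferon list (57.9%) and in 1 of the 3 members that rose and had a promoter, Ifit1. The antioxidant element TGACNNNGC, also searched on both strands, was in 16.6% of all genes, in 7 of 21 members of the conjugation list (33.3%) and in none of the 4 that fell. These are matches of letters within a window and describe no binding. The promoters of Hmgcs1 (chr13:119690101-119690400, plus strand) and Ifit1 (chr19:34640639-34640938, plus strand) are shown, 5′ to 3′, as the called members of their lists that hold the motif searched, with its matches in capitals. The one in Hmgcs1 lies 137 bases before the start, and the first of 2 in Ifit1, both on the opposite strand, 104 bases before it.
Hmgcs1: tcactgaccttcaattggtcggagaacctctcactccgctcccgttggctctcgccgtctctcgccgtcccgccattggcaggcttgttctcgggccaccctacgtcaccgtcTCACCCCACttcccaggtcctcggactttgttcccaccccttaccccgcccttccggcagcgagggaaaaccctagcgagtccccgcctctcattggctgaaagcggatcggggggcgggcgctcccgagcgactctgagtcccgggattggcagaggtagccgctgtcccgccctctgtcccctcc
Ifit1: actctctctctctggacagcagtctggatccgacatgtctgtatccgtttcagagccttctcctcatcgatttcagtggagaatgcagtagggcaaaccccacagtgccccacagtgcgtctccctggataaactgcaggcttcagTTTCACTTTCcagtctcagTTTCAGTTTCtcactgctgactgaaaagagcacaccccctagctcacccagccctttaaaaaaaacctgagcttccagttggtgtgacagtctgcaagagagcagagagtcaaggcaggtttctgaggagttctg

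Genes of cholesterol synthesis held the most called members of any list between the 2 days. Of 25 genes of cholesterol synthesis and SREBP2 targets, 15 fell from day 1 to day 3 and none rose, with a median log2 fold change of -0.71. The list had 24 members that rose and none that fell from 0 days to 1 day (median 0.86), and 5 that rose and none that fell from 0 to 3 days (median 0.25). Idi1, which isomerises the isoprenoid building block (chromosome 13, 8885501 to 8892451, plus strand), stood at 6.62, 15.4 and 28.4 CPM at 0 days, 32.6, 74.2 and 108 at 1 day and 15.6, 23.0 and 44.3 at 3 days. Every mouse at day 1 lay above every mouse at day 0, and the days 1 and 3 overlapped through the 2 lowest mice of day 1. Its log2 fold change was -1.41 ± 0.26, adjusted p = 0.00167 from day 1 to day 3 and 0.81 ± 0.28, adjusted p = 0.0474 from 0 to 3 days, so the gene fell and still lay above its start.

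Pmvk, which phosphorylates mevalonate-5-phosphate (chromosome 3, 89454541 to 89469013, plus strand), stood at 9.97, 13.8 and 17.2 CPM at 0 days, 23.5, 32.0 and 43.8 at 1 day and 10.3, 13.5 and 18.0 at 3 days. All 6 mice of day 3 lay below all 6 of day 1 and overlapped with those of day 0. Its log2 fold change was -1.24 ± 0.20, adjusted p = 0.000228 from day 1 to day 3 and 0.004 ± 0.21, adjusted p = 0.995 from 0 to 3 days, with a 95% interval of -0.41 to 0.42 for the latter. Hmgcs1, which makes HMG-CoA and holds the motif shown above (chromosome 13, 119690379 to 119708260, plus strand), stood at 51.6, 68.1 and 92.0 CPM at 0 days, 87.6, 157 and 229 at 1 day and 48.0, 77.3 and 89.2 at 3 days. Days 1 and 3 overlapped by the lowest mouse of day 1, and the change was -1.16 ± 0.26, adjusted p = 0.007. Msmo1, a sterol demethylase (chromosome 8, 64718139 to 64733792, minus strand), stood at 20.0, 37.2 and 74.1 CPM at 0 days, 51.6, 128 and 156 at 1 day and 31.6, 50.5 and 74.5 at 3 days, and 1 mouse of day 1 lay within the range of day 3. It fell by 1.12 ± 0.23 on the log2 scale (adjusted p = 0.0024).

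The called members lie at early and late steps of the pathway. Mvd, the mevalonate decarboxylase, had 2.93, 8.58 and 14.8 CPM at 1 day and 2.30, 3.15 and 3.82 at 3 days (-1.49 ± 0.36, adjusted p = 0.0138). Mvk, the mevalonate kinase, changed by -0.89 ± 0.22, adjusted p = 0.0164. In the steps after squalene, Lss, the lanosterol synthase, changed by -0.71 ± 0.17, adjusted p = 0.0117, Cyp51, the lanosterol demethylase, by -0.95 ± 0.20, adjusted p = 0.00395, Nsdhl by -0.96 ± 0.22, adjusted p = 0.00806. Further changes were those of Hsd17b7 (-0.53 ± 0.13, adjusted p = 0.0178), Sc5d (-0.58 ± 0.13, adjusted p = 0.00618) and Dhcr7, which makes cholesterol from its last precursor (-0.79 ± 0.18, adjusted p = 0.00913). Acat2, which joins acetyl groups ahead of HMG-CoA, fell too (-0.59 ± 0.16, adjusted p = 0.0374). Mvk and the members named from Lss to Acat2 were picked after their values were seen. So was Rdh11, a retinol dehydrogenase outside the list, with 33.2, 53.3 and 67.8 CPM at 1 day and 18.8, 26.9 and 35.7 at 3 days and -0.96 ± 0.19, adjusted p = 0.00182. Insig1, which holds SREBP in the endoplasmic reticulum, fell as well (-0.79 ± 0.19, adjusted p = 0.0131).

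The members that were not called between day 1 and day 3 had log2 fold changes below 0 too. Sqle, the squalene epoxidase (chromosome 15, 59315077 to 59331192, plus strand), stood at 3.91, 6.53 and 9.56 CPM at 0 days, 14.7, 36.6 and 49.1 at 1 day and 10.3, 17.3 and 32.4 at 3 days. Its days 1 and 3 overlapped, and both lay above day 0 in every mouse. The change from day 1 to day 3 was -0.87 ± 0.27, adjusted p = 0.0748, with a 95% interval of -1.40 to -0.33, and from 0 to 3 days 1.57 ± 0.30, adjusted p = 0.000163. Other members without a call, named after their values were seen, were Fdft1 (-0.43 ± 0.14), Ebp (-0.21 ± 0.064), Tm7sf2 (-0.19 ± 0.13), Stard4 (-0.39 ± 0.13), Srebf2 itself (-0.23 ± 0.10) and Fdps (-0.55 ± 0.48), whose counts were low.

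All 25 values were below 0, and single mice changed how many members were called. Pmvk, Idi1, Hmgcs1, Msmo1, Cyp51, Sc5d and Rdh11 were called in all 18 alternatives. Leaving out 1 library moved the count of list members from 10 (without replicate 3 or 4 of day 1 or replicate 3 of day 3) and 11 (without replicate 5 of day 3) to 19 (without replicate 1 of day 1). The median of the list against the mean of 0 days was 0.39 in replicate 1 of day 1, 0.64 in replicate 6 and 0.73 to 1.32 in the other 4, while the mice of day 3 had -0.045 to 0.48. Sqle was called without replicate 1 of day 1 (adjusted p = 0.0253), without replicate 6 of day 1 (0.0444) and without replicate 4 of day 3 (0.0247). Fdft1 was called without replicate 1 of day 1 (0.0318). Ebp was called without replicate 1 of day 1 (0.0347), replicate 6 of day 1 (0.0407) or replicate 4 of day 3 (0.0429). The call of Mvd was lost without replicate 3 (0.0685) or 4 (0.0596) of day 1. That of Insig1 was lost without either of these or without replicate 3 or 5 of day 3 (0.0514 to 0.0604). Mvk lost its call without replicate 3 of day 1 or replicates 3 or 5 of day 3 (0.0587 to 0.0800), Lss without replicate 4 of day 1 (0.0506) or 3 of day 3 (0.0521). Hsd17b7 lost it (0.0575 to 0.0667) without replicates 2, 3 or 4 of day 1 or 3 or 5 of day 3. Acat2 lost it without replicates 2, 3 or 4 of day 1 or 2, 3, 5 or 6 of day 3 (0.0503 to 0.121), and without the low-count filter (0.0519). With the 2 groups fitted alone the calls of Lss (0.0668), Nsdhl (0.0668), Dhcr7 (0.0776), Hsd17b7 (0.0575) and Acat2 (0.0669) were lost.

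**Figure D1:**
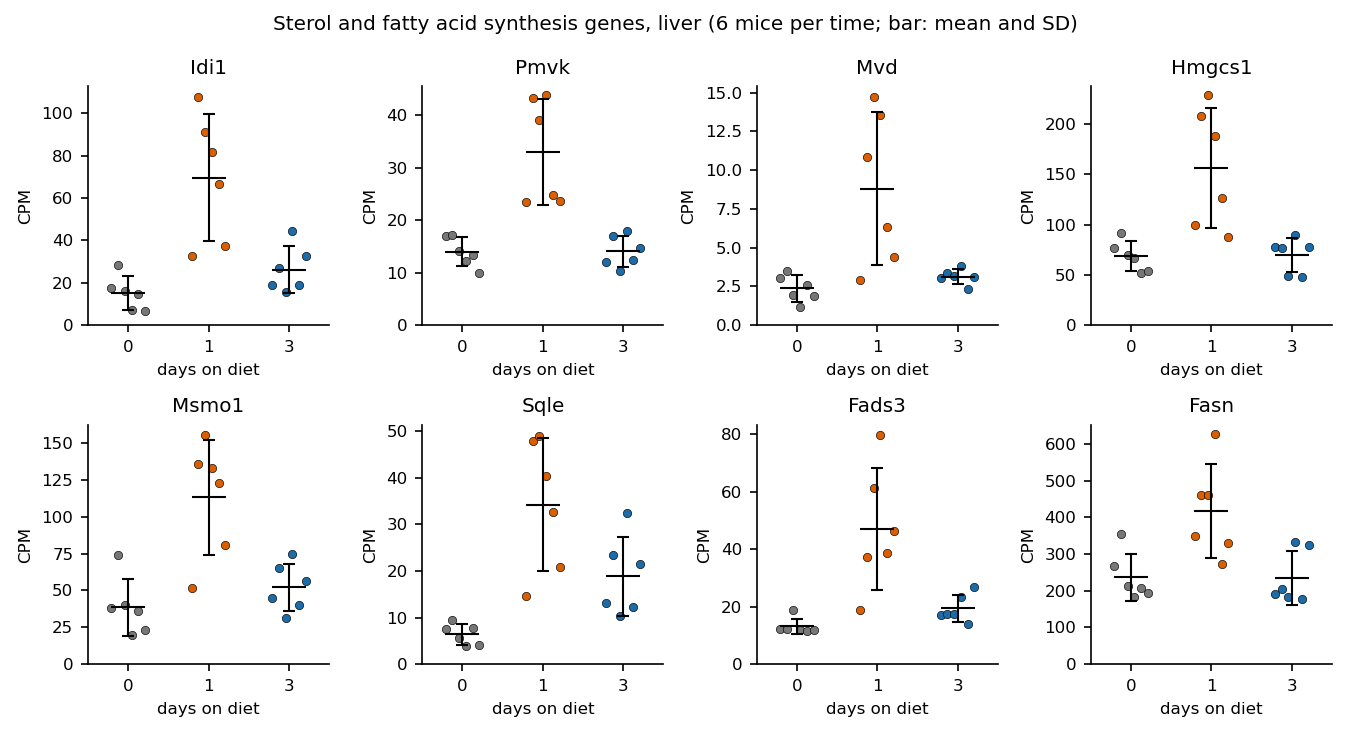
Levels in CPM of 8 sterol and fatty acid synthesis genes in each of 6 mice at 0, 1 and 3 days on the diet, with horizontal lines for the mean and bars for the SD. At day 3 5 of 6 mice for Pmvk and for Mvd lay within the range of day 0, while all 6 for Sqle lay above it.

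The later time points place day 3 in the course of the sterol list. Its median over members, as the difference of time point means of log2 CPM from 0 days, was 0.80 at 1 day, 0.24 at 3 days, 0.34 at 1 week, 0.64 at 10 days, 0.79 at 2 weeks and 1.42 at 12 weeks. Sqle had 34.3 ± 14.2 CPM (mean ± SD) at 1 day, 18.8 ± 8.50 at 3 days, 22.2 ± 7.34 at 1 week, 39.5 ± 10.7 at 10 days and 61.6 ± 16.3 at 12 weeks. Day 3 was thus the lowest of the times on the diet for this list, and the differences between those times were not tested here.

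**Figure D2:**
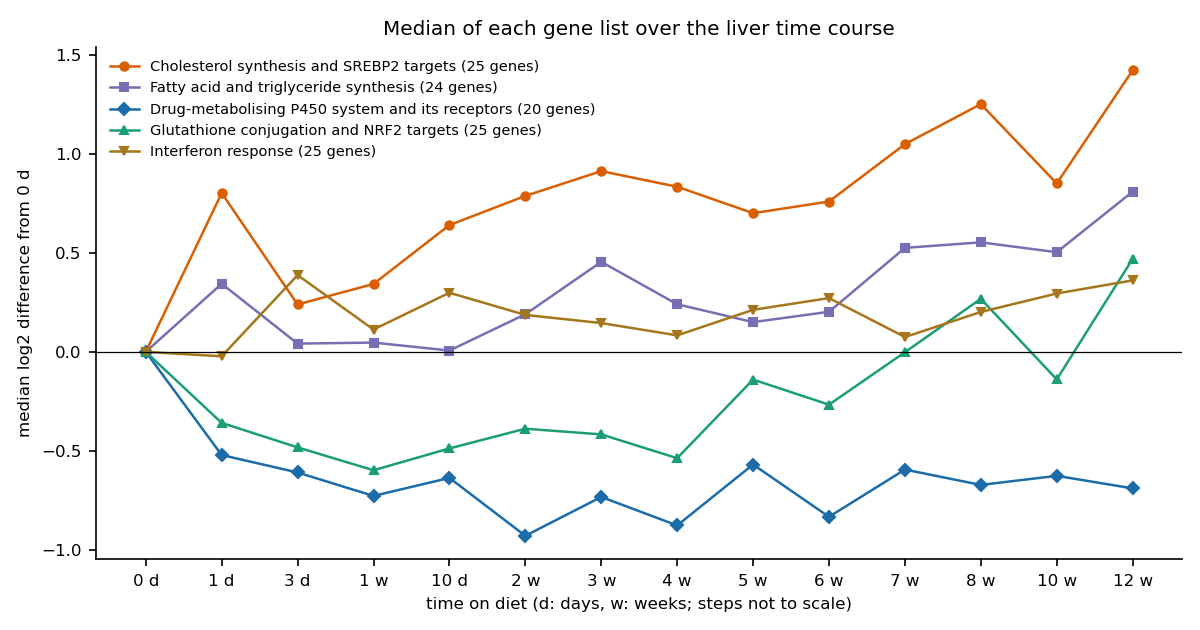
Median log2 difference from 0 days over the members of 5 gene lists (vertical axis) at the 14 liver time points (horizontal axis, steps not to scale), 6 mice per point. The sterol list goes from 0.80 at 1 day to 0.24 at 3 days and 1.42 at 12 weeks, the P450 list stays below -0.5 from 1 day on, and the interferon list has its highest point, 0.39, at 3 days.

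Genes of fatty acid synthesis fell in part. Of 24 genes of fatty acid and triglyceride synthesis, 4 fell from day 1 to day 3 and none rose (median -0.36). From 0 days to 1 day 12 rose and 2 fell (median 0.35), and from 0 to 3 days 5 rose and none fell (median 0.039). Fasn, the fatty acid synthase (chromosome 11, 120805846 to 120824547, minus strand), stood at 182, 211 and 354 CPM at 0 days, 272, 404 and 628 at 1 day and 176, 198 and 334 at 3 days. The 2 highest mice of day 3 lay within the range of day 1, and the other 4 below it. It changed by -0.82 ± 0.22, adjusted p = 0.0258 from day 1 to day 3, and the interval of its difference between 0 and 3 days was -0.43 to 0.42. Acss2, which makes acetyl-CoA from acetate, changed by -0.75 ± 0.18, adjusted p = 0.0124, Slc25a1, the citrate carrier, by -0.42 ± 0.10, adjusted p = 0.0178, and Gpam, which starts triglyceride synthesis, by -0.38 ± 0.10, adjusted p = 0.0391. These 4 calls depended on single mice and on the libraries fitted. With the 2 groups alone Fasn (adjusted p = 0.0662), Acss2 (0.0652) and Gpam (0.0523) were not called and Slc25a1 was, and without the low-count filter Gpam was not (0.0577). Fasn lost it without replicates 2, 3 or 4 of day 1 or 1, 2, 3 or 5 of day 3 (adjusted p 0.0544 to 0.115), and Acss2 without 2 or 4 of day 1 or 3 of day 3 (0.0508 to 0.0820). Slc25a1 lost it without 2, 3 or 4 of day 1 or 3 or 5 of day 3 (0.0538 to 0.0725), and Gpam without 2, 3 or 4 of day 1 or 3, 5 or 6 of day 3 (0.0568 to 0.145). Acly, the citrate lyase, changed by -0.49 ± 0.16, adjusted p = 0.0881 and was called without replicate 4 of day 3 (0.0417). Scd1 (-0.68 ± 0.37) and Srebf1 (-0.15 ± 0.14) had no call.

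The 3 neighbouring desaturase genes of chromosome 19 had unlike values. Fads3 (10041569 to 10060110), whose product is a relative of the front-end desaturases, stood at 11.6, 12.1 and 18.7 CPM at 0 days, 18.8, 42.6 and 79.8 at 1 day and 13.8, 17.6 and 26.9 at 3 days. Day 1 lay above day 0 in every mouse, and its lowest mouse lay within day 3. It changed by -1.28 ± 0.25, adjusted p = 0.0019 from day 1 to day 3 and was called in all 18 alternatives. Fads2 (10062765 to 10101746), the delta-6 desaturase of polyunsaturated fatty acids, stood at 401, 461 and 569 CPM at 0 days, 1093, 1524 and 1848 at 1 day and 895, 1187 and 1404 at 3 days. All mice of days 1 and 3 lay above all of day 0, and days 1 and 3 overlapped. It changed by -0.34 ± 0.18, adjusted p = 0.356 from day 1 to day 3, with a 95% interval of -0.70 to 0.014, and by 1.36 ± 0.18, adjusted p = 6.29e-08 from 0 to 3 days. Fads1 (10182888 to 10196877), the delta-5 desaturase, changed by -0.34 ± 0.16, adjusted p = 0.287 and 1.12 ± 0.16, adjusted p = 4.78e-07. The elongase Elovl5 changed by -0.73 ± 0.23, adjusted p = 0.0748 and 1.01 ± 0.23, adjusted p = 0.00138. Elovl5 was called without replicate 5 of day 1 (0.0496), under DESeq2 (0.0434) and with the 2 groups alone (0.0366). Thrsp, an insulin-responsive lipogenic factor, lay at 533, 722 and 1102 CPM at 1 day and 462, 576 and 969.9 at 3 days (-0.28 ± 0.28, adjusted p = 0.691). Whether Fads3 changed more than its neighbours was not tested, and Fads1, Fads2, Elovl5 and Thrsp were named after their values were seen.

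Genes of 3 proteins that bind fatty acids or acyl-CoA, Fabp1, Dbi and Fabp5, fell between the 2 days. Fabp1, the liver fatty acid binding protein (chromosome 6, 71199827 to 71205023, plus strand), stood at 1914, 2392 and 2725 CPM at 0 days, 3899.9, 4276 and 4963 at 1 day and 2484, 2959.7 and 3291 at 3 days. All mice of day 3 lay below all of day 1. It changed by -0.55 ± 0.13, adjusted p = 0.0117 and had been 0.88 ± 0.13 from 0 days to 1 day. Dbi, which binds acyl-CoA, had the smallest p of all genes, and was named after its values were seen. It stood at 339, 409 and 452 CPM at 0 days, 468, 545 and 591 at 1 day and 296, 354 and 390.5 at 3 days, with no overlap between days 1 and 3, and changed by -0.65 ± 0.10, adjusted p = 3.10e-05. Fabp5, a binding protein of skin and macrophages that the liver also makes, stood at 24.3, 49.2 and 80.2 CPM at 1 day and 11.7, 23.3 and 29.9 at 3 days (-1.19 ± 0.30, adjusted p = 0.0198), a call that was lost without replicate 3 of day 1 (0.0927) or 1 of day 3 (0.0605).

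Most genes of fat oxidation and ketone bodies had no call between the 2 days. That alone does not set them apart, since 1.63% of all genes tested were called and 1.11% fell. Of 33 genes of fatty acid oxidation and PPARA targets, 1 fell from day 1 to day 3 (Fabp1) and none rose (median -0.062). There were 12 rises and no fall from 0 days to 1 day, and 6 rises and no fall from 0 to 3 days. Of 7 ketone genes none was called from day 1 to day 3 (2 of 7 had values above 0), with 3 rises from 0 days to 1 day and 2 from 0 to 3 days. Apoa4, an apolipoprotein of triglyceride-rich particles (chromosome 9, 46240696 to 46243459, plus strand), stood at 86.2, 112 and 168 CPM at 0 days, 430.2, 539 and 743 at 1 day and 412, 552 and 748 at 3 days. All mice of days 1 and 3 lay above all of day 0, and days 1 and 3 overlapped almost fully. Its change from day 1 to day 3 was 0.065 ± 0.30, adjusted p = 0.949, with a 95% interval of -0.54 to 0.67, against 2.14 ± 0.32, adjusted p = 8.44e-07 from 0 days to 1 day. Of 5 intestinal markers 1 could be tested, and it rose from 0 days to 1 day (log2 fold change 1.44). At 0, 1 and 3 days 1, 3 and 2 of the 5 had no count in any mouse. Their sum was 33.6 to 48.5 CPM at 0 days, 106 to 119 at 1 day and 98.0 to 118 at 3 days. It thus rests on few genes, and does not show a rise of these markers as a set. The part of intestinal RNA in the day-1 rise of Apoa4 was not tested.

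Enzymes of ketone body turnover and of fat entry into mitochondria had no call between the 2 days. Bdh1, the hydroxybutyrate dehydrogenase, stood at 142, 164 and 188 CPM at 0 days, 235, 246 and 289 at 1 day and 204, 233 and 262 at 3 days, and both later days lay above day 0 in every mouse. Its change from day 1 to day 3 was -0.11 ± 0.095 (95% interval -0.30 to 0.078). Acat1, which condenses acetyl-CoA, rose by 0.41 ± 0.071, adjusted p = 3.05e-05 by day 1 and differed by -0.092 ± 0.071 (interval -0.23 to 0.049) between days 1 and 3. Cpt1a, which lets long-chain fatty acids into mitochondria, stood at 457, 525 and 605 CPM at 0 days, 631, 689 and 811 at 1 day and 597, 697 and 817 at 3 days. Its day-1 mice all lay above day 0, and its difference between days 1 and 3 was -0.019 ± 0.084 with the interval -0.19 to 0.15. Ppara itself (0.13 ± 0.12) had no call in any of the 3 comparisons. Fgf21, a hormone of fasting and diet, had 0, 0.348 and 0.839 CPM at 0 days, 1.03, 1.52 and 2.48 at 1 day and 0.799, 1.23 and 2.97 at 3 days, levels too low for firm statements. It rose by 1.99 ± 0.54, adjusted p = 0.00924 by day 1 and differed by -0.091 ± 0.44 (interval -0.97 to 0.78) thereafter. Cib3, a calcium-binding protein, had 1.17, 4.17 and 5.13 CPM at 0 days, 9.94, 11.5 and 17.0 at 1 day and 10.3, 13.8 and 16.8 at 3 days, so that both later days lay above day 0 in every mouse (0.074 ± 0.24 from day 1 to day 3, interval -0.41 to 0.56). Smpd3, a sphingomyelinase, had 2.03 ± 0.36 from 0 days to 1 day and -0.40 ± 0.32, adjusted p = 0.612 from day 1 to day 3. The genes Apoa4, Cib3 and Smpd3 were picked by their day-1 change, so that their later values are a description.

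Genes of drug-metabolising P450 enzymes fell in part by day 1 and had no call from day 1 to day 3. Of 20 members of this list none was called from day 1 to day 3 (median 0.014). At the 1.63% share of calls over all genes, a list of 20 may well hold none. From 0 days to 1 day 9 fell and none rose (median -0.51), and 10 fell and none rose from 0 to 3 days (median -0.76). Cyp2c29, a fatty acid epoxygenase (chromosome 19, 39269405 to 39330713, plus strand), stood at 1064, 1266 and 1416 CPM at 0 days, 252, 501 and 579 at 1 day and 383, 487 and 632 at 3 days. Both later days lay below day 0 in every mouse, and they overlapped each other. Cyp2c29 was picked by its day-1 change, so that its distance from day 0 is a description. The change from day 1 to day 3 was 0.10 ± 0.16, adjusted p = 0.836, with a 95% interval of -0.22 to 0.43. Cyp2c50 (0.0025 ± 0.12, interval -0.24 to 0.24), Cyp2a5 (0.089 ± 0.17, -0.24 to 0.42) and Cyp3a25 (0.051 ± 0.15, -0.25 to 0.35), named after their values were seen, had no call either. Cyp3a11, the main drug-oxidising P450 of the mouse liver (chromosome 5, 145854426 to 145879964, minus strand), stood at 3597, 4194 and 5571 CPM at 0 days, 989, 1463 and 1747 at 1 day and 704, 915 and 1102 at 3 days. The median of day 3 lay below every mouse of day 1, and 1 mouse of day 3 lay within the range of day 1. Its change was -0.64 ± 0.20, adjusted p = 0.0803, which is not a call, and -2.26 ± 0.21, adjusted p = 2.62e-13 from 0 to 3 days. With the 2 groups fitted alone the adjusted p from day 1 to day 3 was 0.0365, which is one. Cyp3a59 (-0.34 ± 0.23) and the metalloprotease-like gene Adam11 (-0.20 ± 0.24), whose values were among the lowest changes by day 1, had no call between the days. Cyp2 and Cyp3 genes resemble each other and may share reads, which makes the value of any single gene uncertain.

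The glutathione transferase genes Gstm1, Gstm2, Gstm3 and Gstm4 fell after day 1. Of 25 genes of glutathione conjugation and NRF2 targets, 4 fell from day 1 to day 3 and none rose (median -0.099), and these 4, all of the mu class, were the members called. From 0 days to 1 day 11 fell and none rose (median -0.39), and from 0 to 3 days 13 fell and none rose (median -0.48). Gstm1 (chromosome 3, 108012255 to 108017973, minus strand) stood at 865, 927 and 1027 CPM at 0 days, 469.9, 529.7 and 619 at 1 day and 239.5, 344 and 375 at 3 days. The 3 groups did not overlap, and each day lay below the one before in every mouse. Its change was -0.72 ± 0.14, adjusted p = 0.00167 from day 1 to day 3 and -0.78 ± 0.14, adjusted p = 2.66e-05 from 0 days to 1 day, and it was called in all 18 alternatives. Gstm3 (chromosome 3, 107963696 to 107969283, minus strand) stood at 30.1, 42.3 and 58.1 CPM at 0 days, 16.7, 17.0 and 21.0 at 1 day and 3.08, 7.55 and 9.84 at 3 days, again with 3 groups that did not overlap. It changed by -1.31 ± 0.34, adjusted p = 0.0252 from day 1 to day 3, a call lost without replicate 4 of day 1 (0.0599), 3 of day 3 (0.0972) or 5 of day 3 (0.0591).

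Gstm4 and Gstm2 had no call on the first day. Gstm4 (chromosome 3, 108040408 to 108044894, minus strand) stood at 36.0, 47.0 and 53.7 CPM at 0 days, 31.5, 40.0 and 51.2 at 1 day and 18.0, 22.5 and 29.2 at 3 days. Days 0 and 1 overlapped, and all mice of day 3 lay below both. It changed by -0.15 ± 0.13, adjusted p = 0.529 from 0 days to 1 day and by -0.81 ± 0.14, adjusted p = 0.000365 from day 1 to day 3. Gstm2 (chromosome 3, 107981702 to 107986453, minus strand) changed by -0.39 ± 0.20, adjusted p = 0.211 from 0 days to 1 day and by -0.87 ± 0.21, adjusted p = 0.0117 from day 1 to day 3. The call from day 1 to day 3 was lost without replicate 3 of day 3 (0.0521). Gstm6, named after its values were seen, lay below day 1 in every mouse of day 3 without a call (-0.33 ± 0.12, adjusted p = 0.121). These 5 genes lie on the minus strand of chromosome 3 between 107938847 and 108044894 and are near-identical in parts, so that reads may be shared among them. Outside the mu class, Gsta2, of the alpha class, stood at 25.6, 38.2 and 58.0 CPM at 0 days, 4.36, 13.3 and 16.4 at 1 day and 3.67, 6.49 and 8.88 at 3 days (-0.86 ± 0.34, adjusted p = 0.172 from day 1 to day 3, -2.67 ± 0.32, adjusted p = 3.79e-09 from 0 to 3 days). Ephx1, the epoxide hydrolase, changed by -0.30 ± 0.11, adjusted p = 0.144 and -1.12 ± 0.11, adjusted p = 4.31e-12. Gstm1 had 331 ± 38.5 CPM at 1 week and 1343 ± 228 at 12 weeks.

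**Figure D3:**
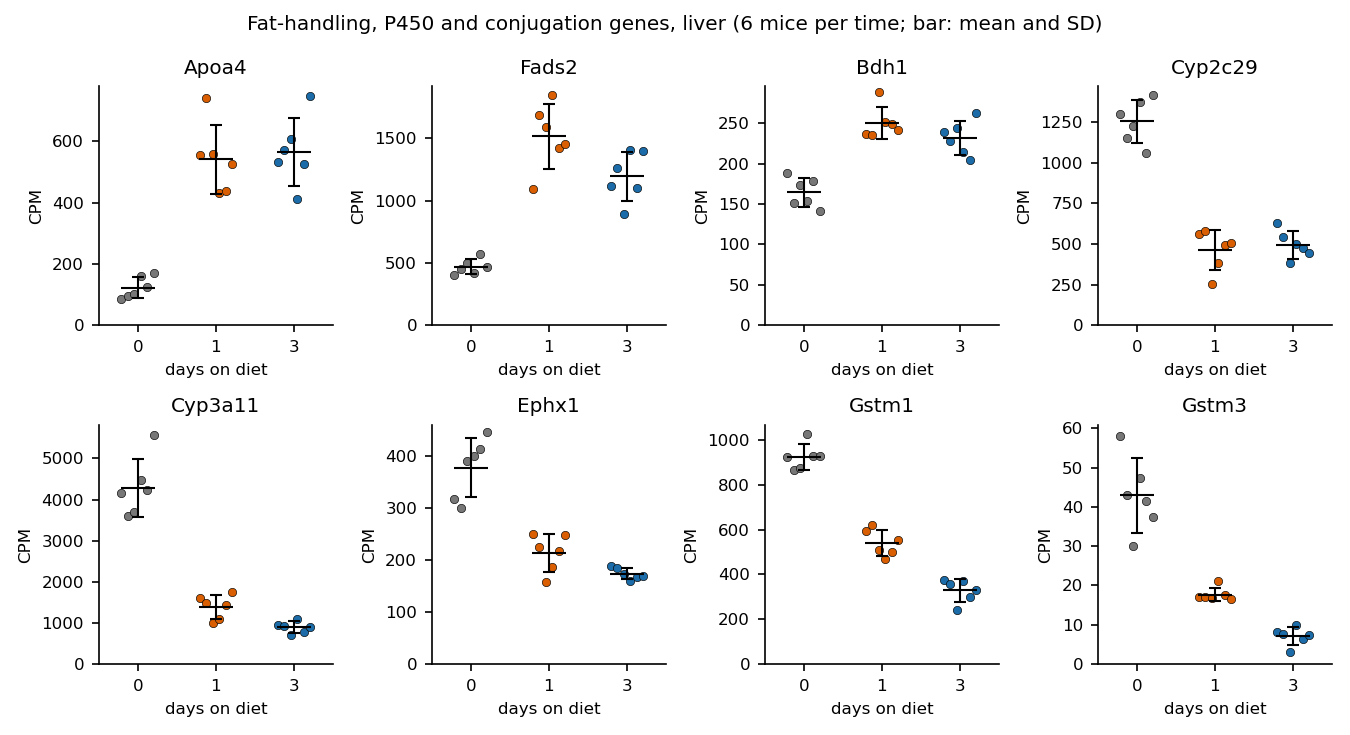
Levels in CPM of 8 genes in each of 6 mice at 0, 1 and 3 days on the diet, with lines for the mean and bars for the SD. Apoa4, Fads2 and Bdh1 stay above day 0 on both later days, Cyp2c29 stays below it, and Gstm1 and Gstm3 step down at each time without overlap of the groups. Apoa4 and Cyp2c29 were picked by their day-1 change.

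A few interferon-response genes rose from day 1 to day 3. Of 25 members 4 rose and none fell (median 0.43, with 23 above 0). Of the same 25, 1 rose and none fell from 0 days to 1 day (median -0.057), and 6 rose and none fell from 0 to 3 days (median 0.37). Ifi44, an interferon-induced protein (chromosome 3, 151730922 to 151749960, minus strand), stood at 2.03, 3.72 and 4.22 CPM at 0 days, 1.72, 3.06 and 3.57 at 1 day and 4.01, 5.45 and 5.99 at 3 days. All mice of day 3 lay above all of day 1, and the change was 0.92 ± 0.21, adjusted p = 0.00882, called in all 18 alternatives. Ifit1, which binds viral RNA (chromosome 19, 34640871 to 34650009, plus strand) and whose promoter is shown above, stood at 7.65, 10.4 and 13.0 CPM at 0 days, 7.62, 8.60 and 11.2 at 1 day and 10.0, 14.9 and 19.2 at 3 days. The lowest mouse of day 3 lay within the range of day 1, and the change was 0.75 ± 0.19, adjusted p = 0.0189. Ifit2, of the same family (chromosome 19, 34550694 to 34576419, plus strand), stood at 3.63, 4.35 and 5.77 CPM at 1 day and 5.93, 7.47 and 8.00 at 3 days without overlap and changed by 0.64 ± 0.18, adjusted p = 0.0493. Rtp4, which is induced by interferon and moves receptors to the membrane, changed by 0.48 ± 0.13, adjusted p = 0.0374. The GTPase gene Irgm2, which is outside the list, changed by 0.66 ± 0.17, adjusted p = 0.0205. Ifit genes resemble each other and Irgm2 overlaps the related gene Igtp, so their reads may be shared.

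The mice of day 3 differed among themselves in these genes. Replicate 3 had the highest Ifit1 (19.2 CPM) and Irgm2 (94.6 CPM), and replicate 4 the lowest Ifit1 (10.0), Ifit2 (5.93), Ifi44 (4.01) and Irgm2 (44.0). The median of the list against 0 days was 0.73 in replicate 3, 0.0024 in replicate 4 and 0.32 to 0.51 in the other 4, against -0.20 to 0.17 in the mice of day 1. Without replicate 3 or replicate 5 of day 3 the list had 1 call, Ifi44. Without replicate 3 the values were adjusted p = 0.0835 for Ifit1, 0.1096 for Ifit2, 0.170 for Rtp4 and, outside the list, 0.132 for Irgm2. Without replicate 4 there were 6 calls. Without any 1 of replicates 1, 2, 3 and 6 of day 1 or 1 and 2 of day 3 there were 2. Ifit1 was also lost without replicate 5 of day 3 (0.0518), and Ifit2 without replicates 1, 2, 3 or 6 of day 1 or any of 1, 2, 5 and 6 of day 3 (0.0510 to 0.106). Rtp4 was lost without any of 1, 2, 3, 5 and 6 of day 1 or 1, 2 and 5 of day 3 (0.0508 to 0.0875), and Irgm2 without replicate 6 of day 1 (0.0637) or 1 of day 3 (0.0535). With the 2 groups fitted alone Irgm2 (0.0769) and Rtp4 (0.0938) were not called, and Ifit2 was not with the offsets (0.0660) or without the low-count filter (0.0643).

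A macrophage gene rose as well. Csf1r, the receptor for the growth factor of macrophages (chromosome 18, 61100598 to 61132149, plus strand), stood at 40.6, 56.4 and 63.6 CPM at 0 days, 31.6, 45.7 and 55.6 at 1 day and 49.3, 70.4 and 105 at 3 days. The 2 groups overlapped in the lowest mouse of day 3, and the change was 0.66 ± 0.18, adjusted p = 0.0288. Of 11 Kupffer cell markers Csf1r alone was called, all 11 had values above 0, the median was 0.42, and no marker was at 0 counts in these groups. Their summed level ran from 296 to 450 CPM (median 379) at 1 day and from 406 to 760 CPM (median 504) at 3 days, with 330 to 472 CPM at 0 days. Clec4f, which marks Kupffer cells, had 0.39 ± 0.14, adjusted p = 0.123, and Cd5l, a secreted macrophage protein, 0.54 ± 0.20, adjusted p = 0.146, both named after their values were seen. Replicate 5 of day 3 was highest for all 3 of these genes and for the sum, and replicate 3 was second for Csf1r (74.7 CPM), Clec4f (132 CPM), Cd5l (104 CPM) and the sum (550 CPM). Without replicate 5 the adjusted p of Csf1r was 0.147, and without replicates 2 or 3 of day 1 or 3 or 6 of day 3 it was 0.0531 to 0.104. With the offsets for GC and transcript length it was 0.0554. Cd5l was called with the 2 groups fitted alone (0.0487) and in no fit that left out a library. Sums of T and B cell markers ran from 3.31 to 6.42 CPM at 1 day and from 3.63 to 6.67 CPM at 3 days, and those of neutrophil markers reached at most 3.65 CPM. The part of macrophage RNA in the change of the interferon genes was not tested.

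**Figure D4:**
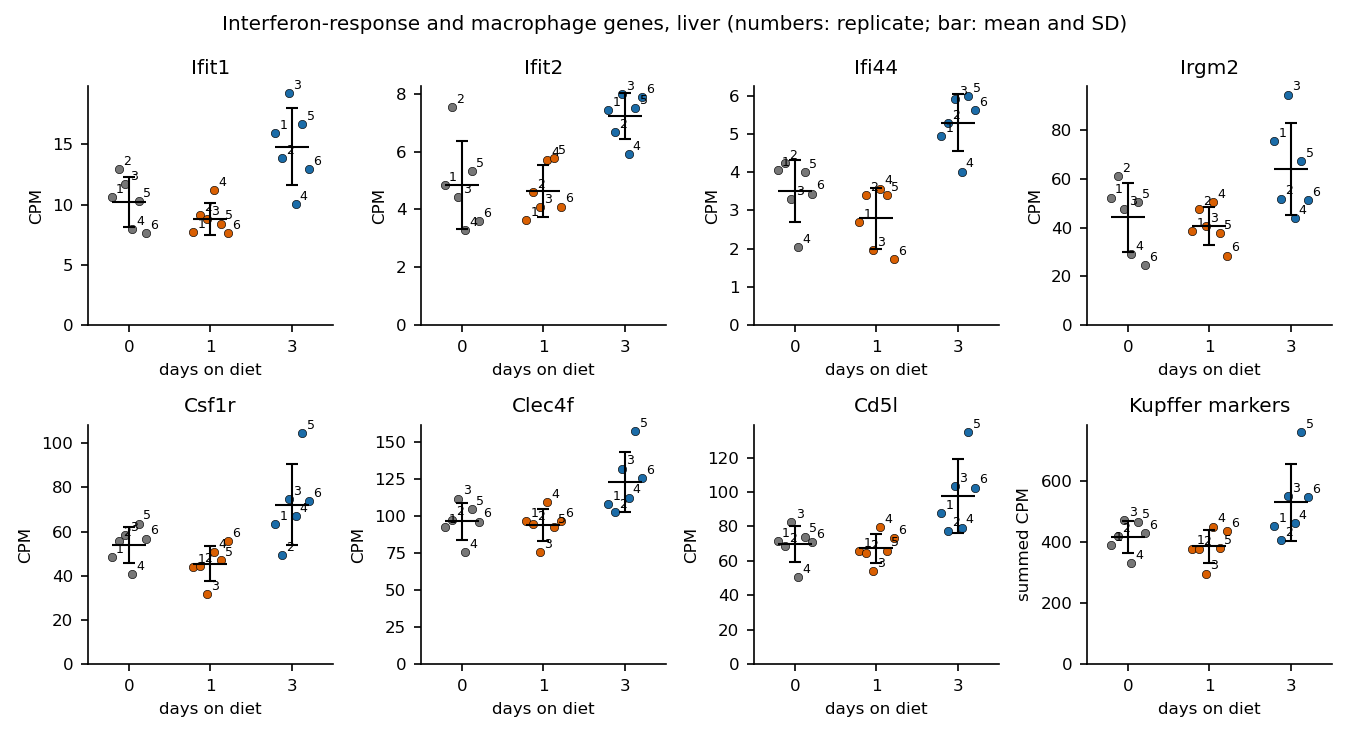
Levels in CPM of 4 interferon-response genes and 3 macrophage genes, and the summed CPM of 11 Kupffer cell markers, in each of 6 mice at 0, 1 and 3 days, with the replicate number beside each point, lines for the mean and bars for the SD. Replicate 3 of day 3 is highest for Ifit1 and Irgm2 and replicate 5 for Csf1r, Clec4f, Cd5l and the marker sum.

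The other genes with the largest rises had a range of roles. Slc15a3, a lysosomal peptide carrier of immune cells, changed by 0.70 ± 0.20, adjusted p = 0.0428, Dysf, a membrane repair protein, by 0.64 ± 0.16, adjusted p = 0.0155, and Plekho2 by 0.57 ± 0.15, adjusted p = 0.0262. Ttbk2, a kinase of cilia, stood at 4.69, 6.16 and 7.74 CPM at 0 days, 3.41, 4.16 and 4.57 at 1 day and 5.70, 6.14 and 7.00 at 3 days, so that day 1 lay below both other days in every mouse (0.62 ± 0.16, adjusted p = 0.0211). Mreg, of melanosome transport, had the same order, with 20.8, 23.7 and 26.6 CPM at 0 days, 14.2, 18.8 and 19.7 at 1 day and 23.7, 24.8 and 31.9 at 3 days, and changed by 0.55 ± 0.12, adjusted p = 0.00492, called in all 18 alternatives. Iqgap1, a scaffold of the cytoskeleton, changed by 0.57 ± 0.14, adjusted p = 0.0124. Without replicate 3 of day 3 the adjusted p was 0.123 for Slc15a3, 0.107 for Dysf, 0.0962 for Plekho2, 0.0680 for Ttbk2 and 0.0555 for Iqgap1. Without replicate 3 of day 1 it was 0.124, 0.0707, 0.106, 0.0619 and 0.0589 in that order. Ttbk2 was also lost without replicate 5 of day 1 (0.0534) or of day 3 (0.0503), Plekho2 without replicate 4 of day 1 or 5 or 6 of day 3 (0.0586 to 0.0657), and Slc15a3 without replicates 1, 2 or 5 of day 1 or 5 or 6 of day 3 (0.0662 to 0.124). With the 2 groups alone Slc15a3 (0.0563), Dysf (0.0995) and Plekho2 (0.0699) were not called, with the offsets Slc15a3 (0.0749) and Plekho2 (0.0542) were not, and without the low-count filter Slc15a3 (0.0548) was not. The 5 genes that rose by 2-fold or more were all below 5 CPM and were named after their values were seen: Gpnmb (1.85 ± 0.52), Slamf9 (1.74 ± 0.47), Rgs1 (1.49 ± 0.42), Frem1 (1.35 ± 0.38) and Taf9b (1.21 ± 0.33). Each of them lost its call in 7 or more of the alternatives that could be fitted.

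Male-biased secreted proteins and steroid enzymes held few calls. Of 19 male-biased liver genes 1 rose from day 1 to day 3, Mup20, the pheromone darcin (chromosome 4, 62050234 to 62054158, minus strand), with 1135, 1366 and 1725 CPM at 0 days, 1607, 1762 and 2087 at 1 day and 2255, 2610.4 and 3564 at 3 days. All mice of day 3 lay above all of day 1, and the change was 0.57 ± 0.16, adjusted p = 0.0493, lost in 10 of 18 alternatives, with 0.163 without replicate 3 of day 3 as the highest adjusted p. Leaving out any 1 of replicates 1, 2, 3, 4 or 6 of day 1, or 1, 5 or 6 of day 3, gave 0.0535 to 0.0903, and no low-count filter 0.0594. Mup8 had a single mouse far from the rest, replicate 3 of day 1 at 686 CPM, and no call between the days (-1.69 ± 0.89, adjusted p = 0.359). Over the 18 alternatives the log2 fold change of Mup8 ran from -2.169 to 1.595, so its direction depended on the fit. Mup genes are near-identical and may share reads. Hsd3b2, a steroid dehydrogenase (chromosome 3, 98709255 to 98724543, minus strand), stood at 56.6, 62.5 and 70.0 CPM at 0 days, 45.4, 63.2 and 74.6 at 1 day and 78.1, 86.0 and 112 at 3 days and rose by 0.54 ± 0.13, adjusted p = 0.0129 without overlap. The call was lost without replicates 2 or 4 of day 1 or 3 of day 3 (0.0517 to 0.0667) and with the 2 groups alone (0.0518). Its male-specific relative Hsd3b5 changed by 0.29 ± 0.43, adjusted p = 0.82. Fn1, fibronectin, was the only called member of 17 matrix genes, with 1464, 1568 and 1782 CPM at 1 day and 1799, 1958 and 2145 at 3 days and no overlap (0.30 ± 0.068, adjusted p = 0.00783, and 0.0805 with offsets for GC and transcript length).

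Genes outside lipid synthesis and conjugation fell as well. Cyp2c69, a P450 of the liver (chromosome 19, 39842814 to 39886799, minus strand), stood at 7.43, 28.1 and 40.3 CPM at 0 days, 12.5, 22.9 and 27.4 at 1 day and 3.73, 6.24 and 11.9 at 3 days, and all mice of day 3 lay below all of day 1. It changed by -1.60 ± 0.41, adjusted p = 0.0202, after -0.35 ± 0.38 from 0 days to 1 day, and lost its call under DESeq2 (0.104) and without replicate 1 (0.0535) or 4 (0.0544) of day 3. Raet1d, a ligand of the killer cell receptor NKG2D, changed by -1.45 ± 0.36, adjusted p = 0.0155, lost without replicate 5 of day 1 (0.0890) or of day 3 (0.0538), and with the 2 groups alone (0.0519). Its relative Raet1e, named after its values were seen, changed by -1.64 ± 0.34, adjusted p = 0.00395 and was called in all 18 alternatives. Raet1d and Raet1e overlap on chromosome 10 and may share reads.

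Chaperones of the endoplasmic reticulum varied widely at day 3. Of 18 members none was called from day 1 to day 3 (median 0.18, 16 above 0), 1 rose and 2 fell by day 1, and 10 rose and 1 fell from 0 to 3 days (median 0.32). Hspa5, the main chaperone there, stood at 411, 477 and 561 CPM at 0 days, 551, 625 and 755 at 1 day and 483, 812 and 1192 at 3 days. It rose by 0.70 ± 0.19, adjusted p = 0.0084 from 0 to 3 days and differed by 0.32 ± 0.19 (interval -0.05 to 0.69) from day 1 to day 3. At day 3 replicate 1 had 1192 CPM, and replicates 5 and 6 had 568 and 483. Hyou1, of the same compartment, ran in that order too, with 326 CPM in replicate 1, 125 in 5 and 112 in 6, as did Creld2 (99.6, 32.2 and 22.2), the latter named after its values were seen. Cytosolic heat shock genes had no call from day 1 to day 3 among 19 members, with 5 rises by day 1 and 7 from 0 to 3 days. At the 1.63% share of calls over all genes from day 1 to day 3, lists of 18 and 19 members may well hold none.

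Many other systems had no call between the 2 days. Since 1.63% of all genes tested were called, lists this short may well hold none, and the counts alone do not set them apart. No member was called among 20 genes of glucose production and insulin signalling, 22 of bile acids, 18 of lipid droplets, 14 of the growth hormone axis, 13 core clock genes, 10 clock output genes, and 26 acute phase genes. The same held for 13 immediate early genes, 14 ATF4 targets, 10 glucocorticoid-induced genes, 25 cell division genes, 14 lipid receptors and 2 cold-inducible genes. Pck1, of glucose production, changed by 0.013 ± 0.21 (interval -0.40 to 0.42). Changes were also not called for Cyp7a1, the first enzyme of bile acid synthesis (-0.19 ± 0.38, interval -0.94 to 0.56), and Cyp8b1 (0.25 ± 0.15, -0.039 to 0.54). Plin2, which coats lipid droplets, stood at 247, 296 and 348 CPM at 0 days, 372, 407 and 461 at 1 day and 265, 329 and 377 at 3 days. All day-1 mice lay above day 0, and it changed by -0.34 ± 0.14, adjusted p = 0.201. Cidec (-0.30 ± 0.39) and Cd36 (0.26 ± 0.18) had no call in any of the 3 comparisons. Of the clock genes, Per2 stood at 22.5, 29.4 and 31.9 CPM at 0 days, 30.9, 37.4 and 48.0 at 1 day and 38.2, 46.0 and 52.4 at 3 days. It changed by 0.23 ± 0.14, adjusted p = 0.434 from day 1 to day 3 and 0.68 ± 0.14, adjusted p = 0.000386 from 0 to 3 days. Nr1d1 changed by -0.47 ± 0.30, adjusted p = 0.481 and -1.02 ± 0.30, adjusted p = 0.019. The acute phase gene Saa1 changed by -0.79 ± 0.78 with the wide interval -2.33 to 0.76, and Mt1 by 0.073 ± 0.47 (-0.86 to 1.00). Arg1, of the urea cycle, was the only called member of 27 genes of amino acid breakdown (-0.30 ± 0.083, adjusted p = 0.0426), and it lost the call without replicates 2, 3 or 4 of day 1 or 1, 3, 5 or 6 of day 3 (0.0678 to 0.121), with the offsets (0.118) and without the low-count filter (0.0618). Apof, an inhibitor of cholesteryl ester transfer, was the only called member of 24 apolipoprotein genes, with 625, 651 and 695 CPM at 1 day and 522, 568 and 597 at 3 days and no overlap (-0.21 ± 0.045, adjusted p = 0.00501).

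Genes of basic cell functions with small changes fell in part. Of 28 nuclear genes of the respiratory chain 4 fell and none rose from day 1 to day 3 (median -0.12): Cox5a (-0.22 ± 0.05), Ndufb8 (-0.24 ± 0.062), Ndufa4 (-0.16 ± 0.045) and Ndufs3 (-0.18 ± 0.049). Of 25 proteasome subunits 2 fell, Psmb4 (-0.26 ± 0.06) and Psmb1 (-0.18 ± 0.048), with a median of -0.14. No member of either list had a value above 0 from day 1 to day 3. From 0 days to 1 day 3 respiratory and 7 proteasome genes rose and none fell. From 0 to 3 days 1 respiratory gene rose and 7 fell, and 1 proteasome gene rose and 4 fell. With offsets for GC and transcript length none of the 4 respiratory genes and 1 of the 2 proteasome genes was called, and with the 2 groups alone none of these 6 was. Leaving out 1 library gave 0 (without replicate 3 of day 1) to 4 called respiratory genes and 0 (without replicate 3 of day 3) to 4 proteasome genes. Of 83 ribosomal protein genes, a list chosen after its values were seen, 10 fell from day 1 to day 3 and 50 from 0 to 3 days, none rose, and with offsets 6 and 44 fell. The median transcript of that list has 1100 nt.

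Transcript length moved with the comparison over all genes. Among genes with transcripts under 1 kb 1 rose and 13 fell (median of the 465 genes -0.11), and over 4 kb 43 rose and 22 fell (median of 4799 genes 0.046). With offsets these medians were -0.033 and -0.0064, and the genes that rose and fell had median lengths of 3027 and 3040 nt. The rank correlation of a library's difference from the 0-day mean with length lay between -0.158 and 0.0459 in the mice of day 1 and between -0.0141 and 0.133 in those of day 3. Ubr4, a giant ubiquitin ligase with a transcript of 15928 nt, stood at 140.5, 166 and 187 CPM at 0 days, 131, 148 and 151 at 1 day and 165, 177 and 189 at 3 days without overlap of days 1 and 3 (0.30 ± 0.057, adjusted p = 0.00167), and had an adjusted p of 0.0542 with offsets. Srrm2, a splicing scaffold of 8864 nt, changed by 0.21 ± 0.047, adjusted p = 0.00783, and 0.218 was its adjusted p with offsets. Trim28, a corepressor, kept its call in all 18 alternatives (0.32 ± 0.061, adjusted p = 0.00167), as did 3 others. They were Ttr, which carries thyroid hormone (-0.33 ± 0.064, adjusted p = 0.00167), the class I gene H2-Q10 (-0.41 ± 0.087, adjusted p = 0.00503) and Rpl3, of the large ribosomal subunit (-0.31 ± 0.06, adjusted p = 0.00167). These last 6 genes were named after their values were seen. The sterol list had 10 to 19 members that fell with any library left out and 10 to 16 under the other alternatives, the offsets included. Reads of 13 genes of the mitochondrial genome summed to 51593 to 56589 CPM (median 54545) at 0 days, 52873 to 59090 (median 54159) at 1 day and 48181 to 53346 (median 49491) at 3 days, so that days 1 and 3 overlapped only narrowly. The part of this, of RNA quality and of library making in the length shift and in the respiratory genes was not tested.

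**Figure D5:**
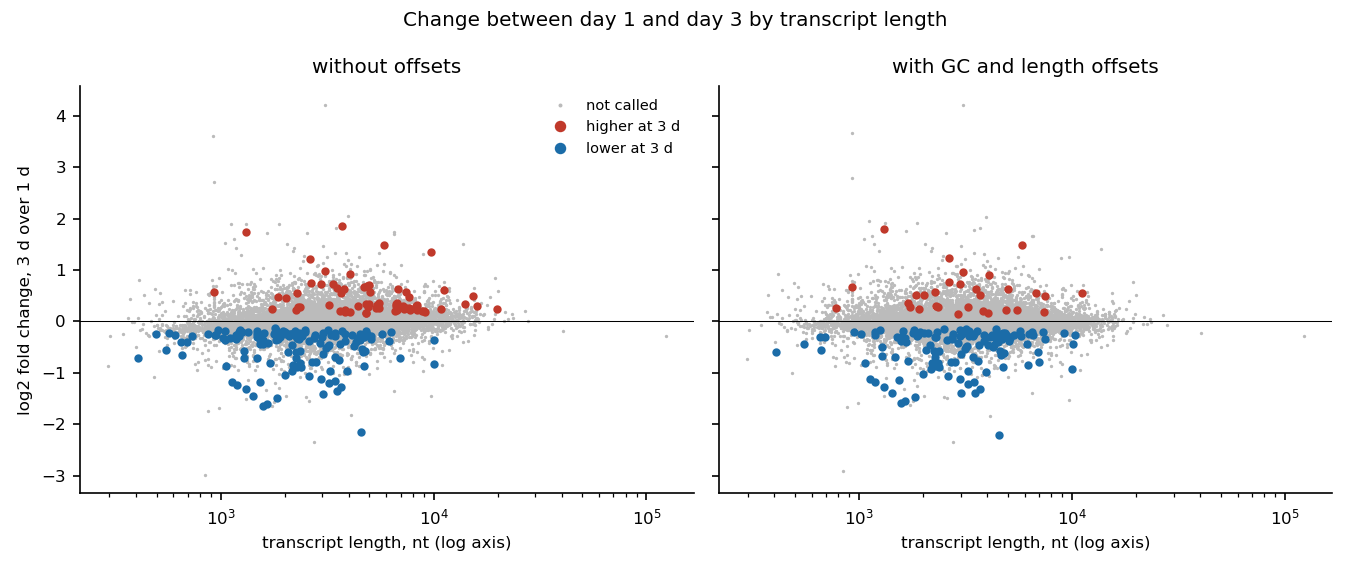
Log2 fold change between day 1 and day 3 (vertical axis) against transcript length in nt (horizontal log axis) for all genes with a known length, without offsets (left) and with offsets for GC content and length (right). Genes that rose (red) gather among long transcripts on the left, where 43 of them exceed 4 kb, and fewer genes rise on the right (30 against 65).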

How the data were processed

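Whole-liver poly(A) RNA of 6 mice per time point was sequenced from strand-specific libraries, per the labels' protocols. The authors deposited 1 table of raw read counts per gene symbol, and the submitters' processing notes name FastQC 0.11.7, Trimmomatic 0.38, HISAT2 2.1.0, SAMtools 1.9, featureCounts 1.6.3 and GRCm38/mm10. Which annotation and which strand option featureCounts was run with is not given in the sources used here. The 1020 columns of other organs were not used. The labels do not give cages or extraction days. The p-values measure the spread between mice of the same time point. A difference of cage or extraction day between time points would not be covered by them.

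The 84 liver libraries (14 time points) were fitted together with edgeR 4.0.16 in R 4.3.3 (low-count filter, TMM scaling, quasi-likelihood test), and p-values were adjusted by Benjamini-Hochberg over 12592 genes at 0.05. Standard errors were computed from each log2 fold change and its F statistic, and intervals are 95%. Totals of 9980872 to 13102723 counts limit genes under about 1 CPM (11 counts). Lengths and coordinates came from GENCODE M21, which matched 12480 of the genes tested.

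The members and gene lists were chosen with earlier results of these data known. Named genes were the 12 highest and 12 lowest called changes from day 1 to day 3 with a mean of at least 5 CPM, the 4 lowest p-values within every list, the 8 highest and 8 lowest called changes from 0 days to 1 day with the same minimum, and a set of well-known liver genes, not all of which are described. Some genes that this rule names are not reported here. Other genes are said to be named after their values were seen. Alternatives were other size factors, no filter, DESeq2 1.42.0, a fit of only the 2 groups, a block for the replicate number, offsets for GC content and transcript length, and leaving out each library. For gene lists, several of these were added after seeing the data.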

Additional observations from a re-analysis of the deposited data

Results flagged for a closer look

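Among 339 groups of 6 mice, the 0-, 1- and 3-day groups of the 113 genes named, 22 (6.49%) had 1 mouse that lay far from the other 5 by Dixon's 95% limit, and chance gives about 1 in 20. At 3 days these mice had 302 CPM for Acly (replicate 4), 31.9 CPM for Mreg (replicate 3), 58.2 CPM for Nr1d1 (replicate 1), and 2.50 CPM for Fdps and 2.97 CPM for Fgf21 (both replicate 6). At 1 day they had 686 CPM for Mup8 and 289 CPM for Bdh1 (both replicate 3), 293 CPM for Cyp3a25 and 21.0 CPM for Gstm3 (both replicate 4), 8.52 CPM for Raet1e (replicate 5) and 66.0 CPM for Creld2 (replicate 6).

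At 0 days replicate 2 stood apart with 74.1 CPM for Msmo1, 32.7 CPM for Rdh11, 480.2 CPM for Thrsp, 5.73 CPM for Smpd3 and 15.5 CPM for Mup8, and replicate 1 with 384.5 CPM for Acat1, 53.1 CPM for Gstm2, 122 CPM for Nr1d1 and 1.21 CPM for Frem1. Replicate 3 had 18.7 CPM for Fads3 and replicate 6 had 39.0 CPM for Cd36.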

How the results depend on the processing

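Of the 205 genes called between day 1 and day 3, 66 were among the 129 genes followed through 18 alternatives each, or 16 for Gpnmb, Slamf9, Taf9b and Frem1. They were picked by their change or p-value, as well-known genes or after their values were seen, so they do not stand for all 205. Of these 66 genes, 21 were called in every one, 45 lost the call in at least 1, and none changed sign. The 2 groups fitted alone gave 134 calls between day 1 and day 3 (35 higher, 99 lower), against 205. Of these 134 genes, 102 were among the 205, and the rest were other genes. Leaving out 1 library gave 95 to 235 calls for day 3 against day 1, 980 to 1247 for day 1 against 0 days and 882 to 1102 for day 3 against 0 days. For the lists, it gave 10 to 19 called sterol genes, 0 to 5 of fatty acid synthesis, 2 to 4 of conjugation, 1 to 6 of the interferon response, 0 to 1 P450 genes, 0 to 4 of the respiratory chain and 0 to 4 of the proteasome. With the 2 groups alone there were 2 called genes of fatty acid synthesis, 2 P450 genes, and 0 of the respiratory chain and of the proteasome. DESeq2 called 1 P450 gene and 5 proteasome genes. Without the filter 2 respiratory genes were called, and with offsets for GC content and length 0 respiratory genes and 1 proteasome gene. These offsets gave 454 higher and 762 lower genes for day 3 against 0 days, beside 558 and 609. The cause of these shifts was not tested.

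With the replicate block there were 299 calls (107 higher, 192 lower), 1 P450 gene and 4 proteasome genes between day 1 and day 3, and 1465 and 1367 calls for the comparisons with 0 days. No label says that the replicate numbers pair the mice. Same-numbered mice of days 1 and 3 had correlations of their deviations between -0.022 and 0.196. For 3 of 6 numbers the best match was the mouse of the same number. Whether mice of the same number share a cage or a step of processing was not tested.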
